A study of Rattus norvegicus with 12 samples.

Results

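The mitosis and G2/M genes are 40 genes chosen by symbol: the kinases, cyclins, checkpoint proteins, chromosome proteins and motors that carry a cell from the end of DNA replication through division. The rule that names them uses no expression value, although the genes were chosen with earlier results of these data known. Ccnb2 was not analysed here, and the other 39 were found among the 18344 rows of the deposited table. All 39 reached at least 1 FPKM in 3 or more libraries and were among the 14257 genes tested. FPKM is the number of fragments of a gene scaled by its transcript length and by the mapped fragments of the library, so levels of different genes are compared per length.

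The libraries were made from cells labelled H9C2, a cardiac myoblast line first grown from embryonic rat heart tissue, although the cell line field names rat astrocytes, so the cell type is unclear. Every group had been through oxygen-glucose deprivation and reperfusion (OGD/R), a culture model of ischaemia, and no group without it was analysed here. The 12 libraries form 4 groups of 3 that differ in what was added: CIRBP and its control NC, and si-CIRBP and its control si-NC. CIRBP is the cold-inducible RNA-binding protein, and si is commonly short for small interfering RNA, which the labels do not spell out. The table names the CIRBP and NC libraries with the prefix ad, which is not explained, and the other 6 without it. No source used here gives doses or times, or says whether both pairs of groups came from the same cells. The labels call the libraries biological replicates. Whether these were separate cultures is not stated, so the p-values measure the spread between these libraries.

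Entry into mitosis is set by CDK1 bound to a B-type or A-type cyclin and released from inhibitory phosphorylation by the CDC25 phosphatases. The transcripts of these genes are low in resting cells and in G1, and rise together in S and G2 under the B-MYB and FOXM1 transcription factors. In resting cells, and after activation of p53 and its target p21, the DREAM complex holds the same genes down through a promoter element called the cell cycle genes homology region (CHR), often near CCAAT boxes. Their summed transcript level therefore tracks the share of cycling cells in many tissues. In bulk RNA, fewer cells in G2 or mitosis and less of these transcripts per cell cannot be told apart.

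Several facts of the libraries bear on every result. Cirbp stood at 34.3, 36.5 and 36.5 FPKM in CIRBP, against 19.0, 19.8 and 20.1 FPKM in NC, and the groups did not overlap. In the libraries labelled si-CIRBP it stood at 26.5, 28.6 and 27.7 FPKM, against 29.0, 24.2 and 27.0 FPKM in si-NC, and those groups overlapped (log2 fold change 0.05, adjusted p = 0.609 with limma). The Cirbp mRNA thus goes against that label, and the directions given for these libraries come without a measured loss of Cirbp. Of the muscle markers, Myod1 lay between 0 and 0.0819 FPKM in the CIRBP and NC libraries together, and stood at 11.02, 9.83 and 11.6 FPKM in libraries labelled si-CIRBP, against 1.74, 21.6 and 15.2 FPKM in si-NC. The summed level of the 6 smooth muscle and myofibroblast markers ranged from 93.4 to 96.3 FPKM in CIRBP, from 78.4 to 79.7 in NC, from 761 to 965 in the libraries labelled si-CIRBP and from 184 to 1449 in si-NC, with si-NC library 1 lowest in its group. The sum of the 14 cardiac and skeletal muscle markers ranged from 9.07 to 10.8 FPKM in CIRBP, from 11.8 to 13.5 in NC, from 41.9 to 254 in the libraries labelled si-CIRBP, where library 1 was lowest, and from 20.8 to 167 in si-NC. The cardiac genes Nkx2-5 and Gata4 were at 0 or near it in CIRBP and NC. Of the astrocyte markers, Aldh1l1 was at most 0.287 FPKM in any of the 12 libraries, while S100b ranged from 110.5 to 188 FPKM. In CIRBP against NC, 19.7% of all genes were called higher and 34.2% lower. Of the 9 astrocyte markers named, 6 were tested, and 3 of these were called higher and 0 lower (median 0.52). The summed level of the 8 with a row was 297, 285 and 302 FPKM in CIRBP, against 202, 191 and 205 FPKM in NC. Of the 6 oligodendrocyte and neuron markers named, 3 were tested, and all 3 were called higher there (median 0.52). The sums of the 4 with a row lay between 34.2 and 34.4 FPKM in CIRBP, against 22.5 to 23.9 FPKM in NC. The called markers of both lists thus rose in this comparison, as the mitotic genes did. In si-NC against NC, 2 of the 6 astrocyte markers were called higher and 2 lower (median 0.16). Of the 3 oligodendrocyte and neuron markers, 0 were called higher there and 2 lower (median -0.44), against 12.5% and 21.9% of all genes. In si-CIRBP against si-NC, 1 astrocyte marker was called higher and 0 lower, and 1 oligodendrocyte or neuron marker in each direction. Of all genes 9.08% were called higher there and 20.5% lower. The summed level of the 5 fibroblast markers ranged from 2415 to 2528 FPKM in CIRBP and from 2659 to 2698 in NC. It ranged from 2365 to 2973 FPKM in the libraries labelled si-CIRBP and from 2524 to 3019 in si-NC. Of these 5, 1 was called higher and 0 lower in CIRBP against NC (median -0.01), and 2 higher and 1 lower in si-NC against NC (median 1.37). The 1 called higher in CIRBP is close to the share of all genes. The part of these cell markers in the results below was not tested.

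Library 1 of those labelled si-CIRBP stood apart from its group in the mitotic genes. All 39 were lower in it than in libraries 2 and 3, against 45.6% of all genes tested, and 32 of the 39 were lower by at least 0.5 on the log2 scale, against 7.76% of all genes. The median gap of the 39 genes was -0.83, and that of all genes -0.02. In the other 11 libraries the median gap of the 39 genes to the rest of the group lay between -0.14 and 0.47. Relative depth, read from the steps between low values, ran from 0.842 to 1.03 times that of NC library 1, and stood at 1.01 in this library, within the range of the others. Results are given with and without it. It was singled out by these same genes. Leaving it out therefore raises their level in its group through that choice, and is not a separate test of them.

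The promoters of the mitotic genes are shown first, because many of the genes moved together and the CHR is the element they are known to share. RefSeq sequences (build GRCr8) covered 34 of the 39 genes, and the 250 bases before each start were searched on both strands for TTTGAA or TTTAAA, the letters of the CHR, for CCAAT, and for TATAAA. A CHR was found in 29 of the 34 genes (85.3%), against 25.4% of all 33469 promoter windows in the table and 17.8% of the 9023 tested genes matched to it. CCAAT was found in 28 (82.4%), against 34.0% of windows and 37.6% of tested genes. Both motifs stood together in 25 genes (73.5%), against 9.04% of windows and 6.76% of tested genes, and TATAAA in 1 gene (2.94%), against 12.9% and 6.92%. The nearest CHR lay within 100 bases of the start in 25 of the 29 genes, at a median of 51 bases. A match is a match of letters and does not show a bound site. Among genes called higher in CIRBP, 14 of the 17 matched had a CHR, and among those not called, 15 of the 17 matched had one.

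The stretch just before the start is printed for the 6 genes with a CHR and the smallest adjusted p in CIRBP against NC, and for Plk1 and Cdc20, which were chosen after their values were seen because they were the lowest in the library that stood apart. Capitals mark the CHR and CCAAT letters on either strand, where ATTGG is CCAAT and TTCAAA is TTTGAA read from the other strand. The windows are chr20:19265168-19265292, plus strand, for Cdk1, chr18:26630293-26630417, minus strand, for Cdc25c, chr10:103572021-103572145, plus strand, for Birc5, chr3:127057170-127057294, plus strand, for Nusap1, chr14:69645446-69645570, minus strand, for Ncapg, chr10:84473094-84473218, minus strand, for Top2a, chr1:186147533-186147657, plus strand, for Plk1, and chr5:137255800-137255924, minus strand, for Cdc20, each written 5′ to 3′ in the direction of the gene.
Cdk1: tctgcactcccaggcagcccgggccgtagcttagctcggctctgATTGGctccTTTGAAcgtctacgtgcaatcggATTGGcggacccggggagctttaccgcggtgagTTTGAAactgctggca
Cdc25c: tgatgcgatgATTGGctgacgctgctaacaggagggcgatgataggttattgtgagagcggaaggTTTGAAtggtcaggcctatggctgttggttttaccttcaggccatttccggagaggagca
Birc5: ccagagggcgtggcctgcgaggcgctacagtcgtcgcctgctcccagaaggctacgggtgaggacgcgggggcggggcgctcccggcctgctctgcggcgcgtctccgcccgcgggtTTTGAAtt
Nusap1: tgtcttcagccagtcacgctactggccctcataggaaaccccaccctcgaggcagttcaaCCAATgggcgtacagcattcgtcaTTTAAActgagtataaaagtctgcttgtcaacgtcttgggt
Ncapg: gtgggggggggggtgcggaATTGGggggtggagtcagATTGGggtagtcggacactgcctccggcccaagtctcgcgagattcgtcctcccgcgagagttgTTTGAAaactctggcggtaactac
Top2a: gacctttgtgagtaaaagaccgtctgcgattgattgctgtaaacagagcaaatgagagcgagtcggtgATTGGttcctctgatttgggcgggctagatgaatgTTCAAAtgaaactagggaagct
Plk1: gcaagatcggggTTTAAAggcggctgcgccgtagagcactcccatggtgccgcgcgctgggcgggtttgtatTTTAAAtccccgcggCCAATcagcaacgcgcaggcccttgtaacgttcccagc
Cdc20: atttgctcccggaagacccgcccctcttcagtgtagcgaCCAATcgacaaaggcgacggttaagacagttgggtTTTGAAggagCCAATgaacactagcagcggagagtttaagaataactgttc
In Cdk1 there are 2 CHR matches and 2 CCAAT matches in the window, with the CHR nearest to the start 16 bases before it. The CHR of Birc5 lies 8 bases before the start, and its nearest CCAAT, 213 bases before it, lies outside the printed stretch. Plk1 also has 2 CHR matches.

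The mitotic genes were higher in CIRBP than in NC across all of their roles. Of the 39, 20 were called higher than in NC and 0 lower (limma, adjusted p under 0.05), against 19.7% of all genes tested called higher and 34.2% called lower. At an unadjusted p under 0.05, 24 were higher and 0 lower, a threshold at which the share of all genes was not counted. The fold change was positive in 38 of 39, with a median of 0.48 on the log2(FPKM + 1) scale, which understates the changes of low genes, while the median of all genes was -0.08. In 37 of the 39 genes every CIRBP library lay above every NC library, which held for 29.7% of all genes. The summed FPKM of the 39 genes was 2031, 2069 and 2103 in CIRBP, against 1489, 1500 and 1463 in NC.

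**Figure D1:**
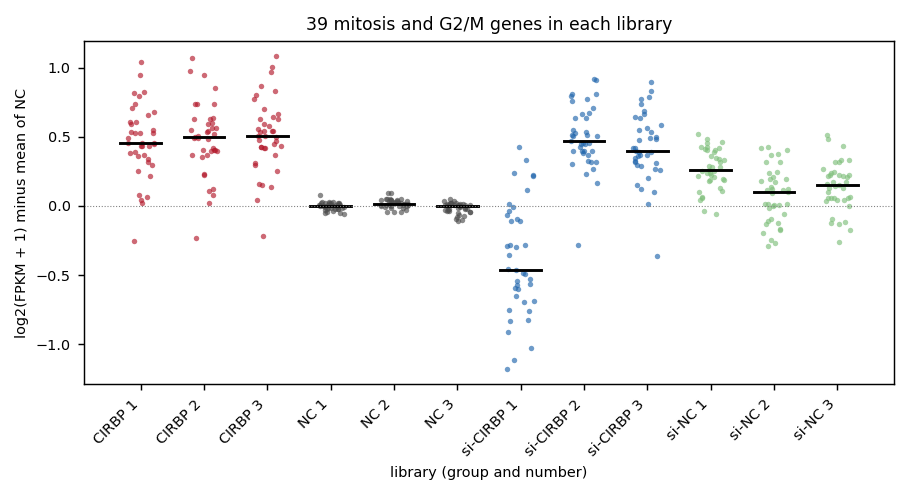
Difference of each of the 39 genes from the mean of the NC libraries, on the log2(FPKM + 1) scale (vertical axis), in each of the 12 libraries (horizontal axis); each point is a gene and each bar the median over the genes. The medians are 0.45, 0.49 and 0.51 in CIRBP, -0.46, 0.47 and 0.40 in libraries 1, 2 and 3 labelled si-CIRBP, and 0.26, 0.10 and 0.15 in si-NC.

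The test shared 1 estimate of the spread per gene over all 12 libraries, and the spread itself differed between groups. The median SD of the 39 genes (log2 scale) was 0.0317 in CIRBP, 0.0312 in NC, 0.484 in the libraries labelled si-CIRBP and 0.106 in si-NC. In a fit of the 6 CIRBP and NC libraries alone, 36 of the 39 genes were called higher and 1, Smc4, lower, against 27.9% and 42.8% of all genes. In a fit without library 1 labelled si-CIRBP, 35 were called higher and 1 lower, against 24% and 38.2% of all genes. Leaving out any 1 CIRBP or NC library left 12 to 15 called higher, against 16.2% to 17% of all genes. It left 12 without CIRBP library 2 or NC library 3 and 13 without CIRBP library 3, and 12 of the 20 were called in all 6 of those fits. The 8 that lost the call in at least 1 were Cdc25b, Ttk, Incenp, Smc2, Kif11, Kif23, Prc1 and Ect2. With every library brought to the same median FPKM, the median of all genes was 0.03, that of the 39 genes was 0.63, and 27 were called higher, against 28.7% of all genes. Over all genes this scaling gave 4089 higher and 3758 lower, against 2814 higher and 4881 lower without it; scaling by median ratios gave 3882 higher and 3933 lower.

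Among the mitotic entry genes, 3 of 7 were called higher in CIRBP, all 7 had non-overlapping groups, and the median log2 fold change was 0.54. Cdk1 (ENSRNOG00000000632), the kinase that drives entry into mitosis, stood at 131, 134 and 134 FPKM in CIRBP, against 62.2, 62.7 and 63.8 FPKM in NC. It had the largest rise of the 39 genes (log2 fold change 1.07, SE 0.155, adjusted p = 0.000186), and its lowest CIRBP library lay far above its highest NC library. Cdc25c, a phosphatase that removes the inhibitory phosphates from CDK1, stood at 15.4, 15.4 and 16.6 FPKM in CIRBP, against 8.48, 8.86 and 9.20 FPKM in NC (log2 fold change 0.77, SE 0.0970, adjusted p = 6.88e-05). Cdc25b, which starts that activation, stood at 31.9, 31.6 and 31.6 FPKM in CIRBP, against 21.5, 21.6 and 21.5 FPKM in NC. Its groups were far apart beside their own spread. Its call (log2 fold change 0.54, adjusted p = 0.0216) was lost when any 1 CIRBP or NC library was left out, with adjusted p between 0.0517 and 0.0550.

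The cyclins moved by a similar amount without passing the shared test. Ccnb1, the B-type cyclin of the mitotic kinase, stood at 64.9, 65.5 and 69.7 FPKM in CIRBP, against 44.0, 44.3 and 45.8 FPKM in NC, with a log2 fold change of 0.57 (95% interval -0.11 to 1.24, adjusted p = 0.144). Ccna2, which acts in S phase and G2, stood at 57.0, 56.3 and 57.1 FPKM in CIRBP, against 39.7, 40.4 and 36.8 FPKM in NC (log2 fold change 0.53, SE 0.252, adjusted p = 0.0984). The groups did not overlap in either gene, and the fit of these 6 libraries alone called both higher (adjusted p = 1.57e-05 for Ccnb1 and 3.13e-05 for Ccna2). Plk1 (ENSRNOG00000018815), a kinase that activates CDC25 and later works at centrosomes and kinetochores, was higher by less, at 47.7, 47.8 and 50.5 FPKM in CIRBP, against 44.9, 45.2 and 45.5 FPKM in NC (log2 fold change 0.10, SE 0.346, adjusted p = 0.839; adjusted p = 0.0133 in the fit of these 6). Aurka, the centrosome kinase that activates PLK1, had a log2 fold change of 0.23 (adjusted p = 0.474).

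**Figure D2:**
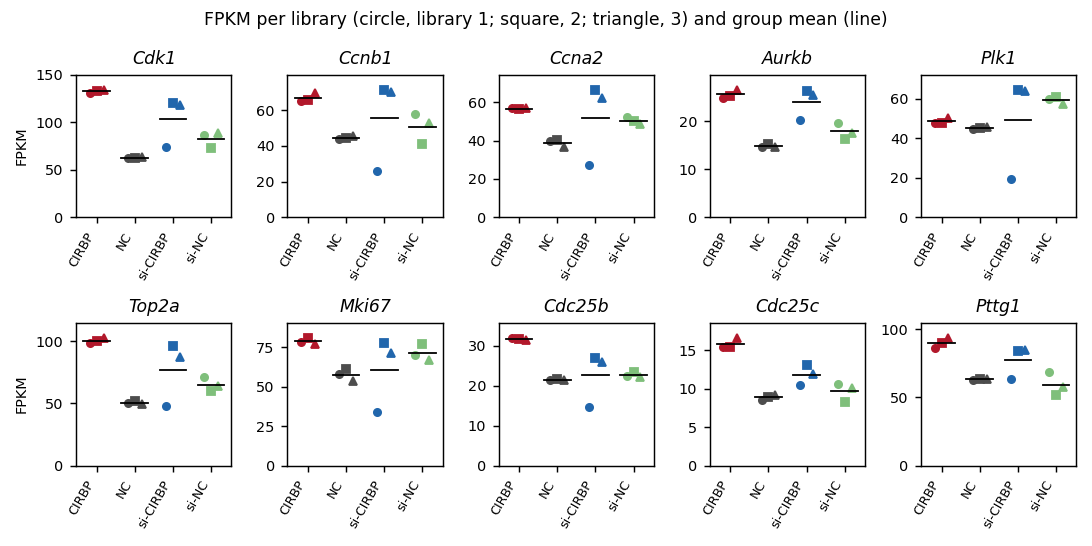
FPKM (vertical axes, from 0) of 10 mitotic genes in the 4 groups (horizontal axes); each symbol is a library and each line a group mean. Cdk1 lies between 130.7 and 134 FPKM in CIRBP and between 62.2 and 63.8 FPKM in NC, and library 1 labelled si-CIRBP (blue circle) lies below libraries 2 and 3 in all 10 genes.

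Among the spindle checkpoint and anaphase genes, 4 of 8 were called higher in CIRBP and the median was 0.49. Mad2l1, the checkpoint protein that holds back anaphase until chromosomes are attached, stood at 46.1, 45.4 and 47.4 FPKM in CIRBP, against 29.4, 29.7 and 27.4 FPKM in NC (log2 fold change 0.67, SE 0.123, adjusted p = 0.000951). Pttg1, securin, the inhibitor of separase, stood at 86.1, 89.7 and 93.5 FPKM in CIRBP, against 62.9, 63.6 and 63.6 FPKM in NC (log2 fold change 0.50, SE 0.116, adjusted p = 0.00404). Espl1, separase itself, the protease that opens cohesin, rose with it, at 11.5, 11.8 and 12.1 FPKM in CIRBP, against 7.81, 7.404 and 7.77 FPKM in NC (log2 fold change 0.56, adjusted p = 0.0111). In all 3 genes the lowest CIRBP library was above the highest NC library. Ttk, the kinase that starts checkpoint signalling, was called at the edge (log2 fold change 0.48, adjusted p = 0.048). Bub1 and Bub1b, checkpoint kinases of the kinetochore, and Ube2c, the E2 enzyme of the anaphase-promoting complex (APC/C), had log2 fold changes of 0.27, 0.45 and 0.62 and were not called. Cdc20, the activator of the APC/C in mitosis, was nearly level, at 53.3, 56.5 and 58.3 FPKM in CIRBP, against 53.2, 51.4 and 52.4 FPKM in NC (log2 fold change 0.10, 95% interval -0.63 to 0.82), and was not called in the fit of these 6 libraries either.

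Among the centromere and chromosomal passenger genes, 4 of 7 were called higher and the median was 0.44. Aurkb (ENSRNOG00000005659), the kinase of the chromosomal passenger complex, stood at 24.8, 25.3 and 26.5 FPKM in CIRBP, against 14.5, 15.3 and 14.6 FPKM in NC (log2 fold change 0.75, SE 0.0940, adjusted p = 6.71e-05), and had the smallest adjusted p of the 39 genes. Birc5, survivin, which brings AURKB to the centromere, stood at 89.3, 91.8 and 99.6 FPKM in CIRBP, against 49.2, 51.3 and 50.7 FPKM in NC (log2 fold change 0.88, SE 0.116, adjusted p = 9.21e-05). Cenpa, the histone H3 variant that marks centromeres, stood at 15.3, 14.7 and 15.1 FPKM in CIRBP, against 8.05, 8.78 and 8.49 FPKM in NC (log2 fold change 0.77, SE 0.201, adjusted p = 0.00769). In each of the 3 the CIRBP libraries lay close together and well above NC. Of the other passenger subunits, Incenp, the scaffold, rose by 0.38 (adjusted p = 0.0344), and Cdca8, borealin, had a log2 fold change of 0.44 (adjusted p = 0.0724). The kinetochore motor gene Cenpe and the kinetochore gene Cenpf had log2 fold changes of 0.39 and 0.42 and were not called.

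Of the 6 chromosome structure genes, 3 were called higher, with a median of 0.46, and they held both a rise close to that of Cdk1 and the one negative fold change. Top2a (ENSRNOG00000053047), the topoisomerase that untangles sister chromatids, stood at 98.4, 100.2 and 102 FPKM in CIRBP, against 50.6, 51.7 and 49.1 FPKM in NC (log2 fold change 0.98, SE 0.197, adjusted p = 0.00164). Of the condensin genes, whose products compact chromosomes, Ncapg stood at 37.8, 36.5 and 37.5 FPKM in CIRBP, against 23.5, 24.1 and 22.1 FPKM in NC (log2 fold change 0.66, SE 0.1001, adjusted p = 0.000251), and Smc2 was also called (log2 fold change 0.47, adjusted p = 0.0228). Smc4 (ENSRNOG00000010274), the partner of SMC2 in the same complex, went the other way, at 66.4, 67.3 and 68.2 FPKM in CIRBP, against 78.6, 80.3 and 79.1 FPKM in NC. All 3 CIRBP libraries of Smc4 lay below all 3 NC libraries, and it was not called in the shared fit (log2 fold change -0.23, SE 0.154, adjusted p = 0.231) but was called lower in the fit of these 6 libraries (adjusted p = 6.84e-05). Ncapd2, another condensin subunit, had a log2 fold change of 0.11. Mki67, the proliferation marker that coats mitotic chromosomes, stood at 78.6, 80.8 and 77.1 FPKM in CIRBP, against 57.9, 61.4 and 53.5 FPKM in NC; the groups were apart, and the shared test did not call it (log2 fold change 0.45, SE 0.239, adjusted p = 0.139).

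Of the spindle motors and microtubule-binding genes, 3 of 6 were called higher, with a median of 0.52. Nusap1, which bundles spindle microtubules near chromosomes, stood at 31.4, 34.3 and 32.4 FPKM in CIRBP, against 17.6, 17.5 and 16.9 FPKM in NC (log2 fold change 0.88, SE 0.131, adjusted p = 0.00022). Tpx2, which activates AURKA on the spindle, stood at 80.8, 82.3 and 82.0 FPKM in CIRBP, against 53.6, 51.2 and 53.5 FPKM in NC (log2 fold change 0.62, SE 0.180, adjusted p = 0.0134). Kif11, the motor that pushes the spindle poles apart, stood at 47.4, 47.3 and 46.7 FPKM in CIRBP, against 31.4, 31.9 and 29.8 FPKM in NC (log2 fold change 0.59). No CIRBP library of these 3 genes reached down to the NC range. Kif2c, Kif4a and Hmmr, a depolymerising kinesin, a chromosome-bound kinesin and a spindle-associated hyaluronan receptor, had log2 fold changes of 0.45, 0.42 and 0.35 and were not called. Of the 5 midzone and cytokinesis genes, 3 were called higher and the median was 0.39. Prc1, which cross-links the midzone microtubules, stood at 121, 126 and 125 FPKM in CIRBP, against 86.1, 85.9 and 84.9 FPKM in NC (log2 fold change 0.53, adjusted p = 0.0192). Ect2, the RHOA activator that starts the cleavage furrow, and Kif23, a motor of the central spindle, were called at 0.54 and 0.35, and Kif20a, a midzone kinesin, was not (0.39). Anln, anillin, the scaffold of the contractile ring, was the gene whose groups overlapped, at 118, 117 and 119 FPKM in CIRBP, against 121, 117 and 107 FPKM in NC (log2 fold change 0.04, 95% interval -0.22 to 0.29).

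**Figure D3:**
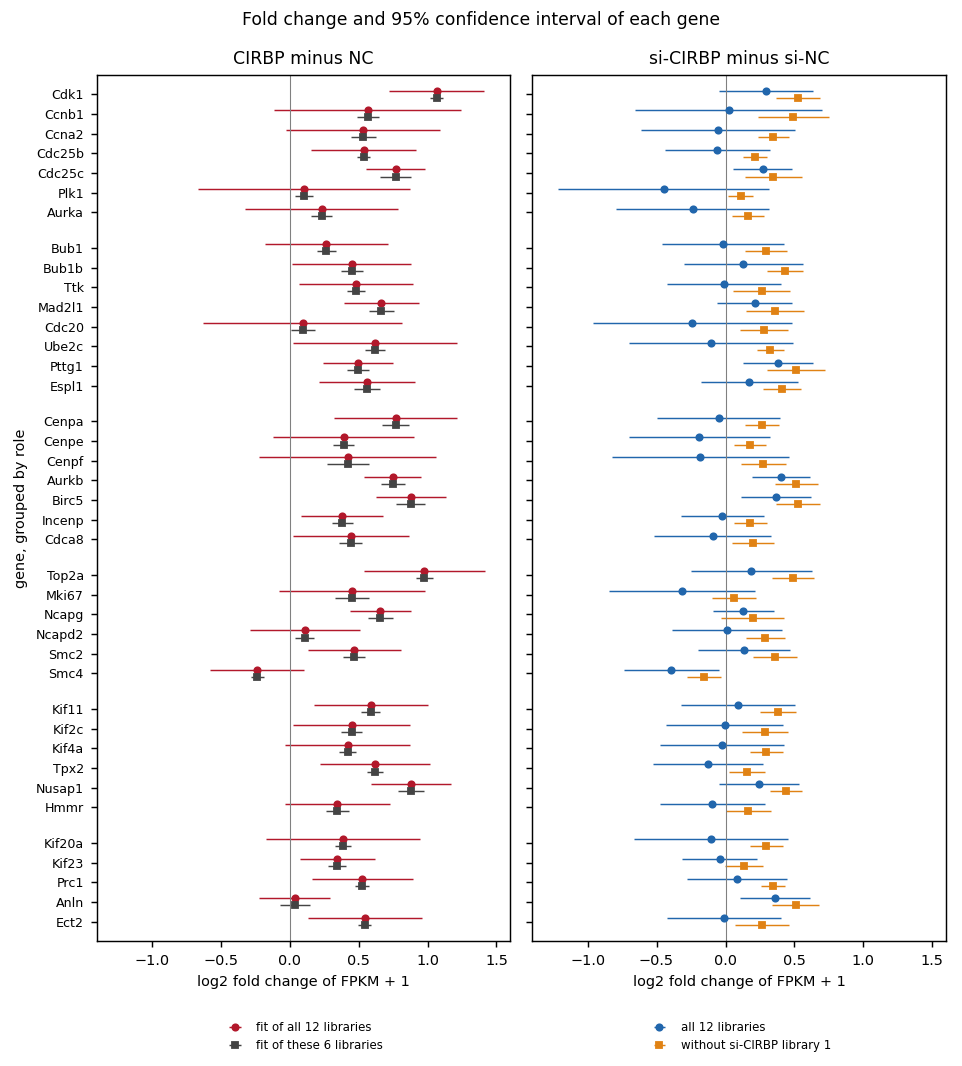
Log2 fold change of FPKM + 1 (horizontal axes) with its 95% confidence interval for each of the 39 genes (vertical axis, grouped by role); the left panel is CIRBP minus NC and the right panel the libraries labelled si-CIRBP minus si-NC. Points are nearly all to the right of 0 on the left, with 20 called in the fit of all 12 libraries and 36 in the fit of these 6, and on the right they centre on -0.01 with all libraries and on 0.29 without library 1.

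In the libraries labelled si-CIRBP, few of the mitotic genes were called, and the 3 libraries lay on both sides of si-NC. Of the 39, 4 were called higher and 0 lower, against 9.08% of all genes higher and 20.5% lower, with a median of -0.01 (all genes -0.04) and a positive fold change in 17. At an unadjusted p under 0.05, 5 were higher and 1 lower, and the share of all genes at that threshold was not counted. The sign of the median depends on the scaling, as it was 0.10 with 31 positive after scaling to one median, and 0.06 with 27 positive after scaling by median ratios, where 5 were called higher in each, against 17% and 13.8% of all genes. The summed FPKM of the 39 genes was 1149.7, 2096 and 1988 in libraries labelled si-CIRBP, against 1766, 1547 and 1607 in si-NC. In a fit of these 6 libraries alone, limma called 0, against 1.87% of all genes higher and 6.24% lower. One gene, Aurkb, had all 3 libraries above all 3 of si-NC, a pattern of 11.7% of all genes, and one, Smc4, had all 3 below.

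The 4 called genes were 2 chromosomal passenger genes, securin and anillin. As a share of the 39 mitotic genes, 4 is close to the 9.08% of all genes called higher in this comparison. The calls therefore do not set the mitotic genes apart from other genes. The fit of only the groups compared called 0 of them. Aurkb stood at 20.3, 26.4 and 25.4 FPKM in libraries labelled si-CIRBP, against 19.7, 16.4 and 17.5 FPKM in si-NC (log2 fold change 0.40, SE 0.0940, adjusted p = 0.00906). Birc5 stood at 63.6, 89.0 and 87.7 FPKM in libraries labelled si-CIRBP, against 67.9, 57.8 and 58.4 FPKM in si-NC (log2 fold change 0.37, SE 0.116, adjusted p = 0.0354). Both were high in libraries 2 and 3, and library 1 of Birc5 lay within the si-NC range. Pttg1 stood at 63.8, 83.9 and 84.9 FPKM in libraries labelled si-CIRBP, against 68.4, 51.5 and 57.8 FPKM in si-NC (log2 fold change 0.38, SE 0.116, adjusted p = 0.0306). Anln stood at 108, 158 and 139 FPKM in libraries labelled si-CIRBP, against 112, 97.0 and 102 FPKM in si-NC (log2 fold change 0.36, SE 0.115, adjusted p = 0.0384). In Pttg1 and Anln, too, library 1 lay within the si-NC range and libraries 2 and 3 above it, and Anln was the gene whose groups overlapped between CIRBP and NC. The calls of Birc5, Pttg1 and Anln were lost without library 2 or library 3 of either group, with adjusted p between 0.0806 and 0.118. The call of Birc5 was also lost without CIRBP library 2 or any 1 NC library, and that of Anln without any 1 CIRBP library, NC library 1 or NC library 2, with adjusted p between 0.0518 and 0.0563. That of Aurkb held in each fit without 1 library.

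The next genes in order of adjusted p were not called. Cdc25c stood at 10.4, 13.0 and 11.9 FPKM in libraries labelled si-CIRBP, against 10.6, 8.21 and 10.1 FPKM in si-NC (log2 fold change 0.27, SE 0.0970, adjusted p = 0.0602). Smc4 stood at 38.4, 65.2 and 61.6 FPKM in libraries labelled si-CIRBP, against 76.2, 70.3 and 66.1 FPKM in si-NC (log2 fold change -0.39, SE 0.154, adjusted p = 0.0803). Nusap1 stood at 16.8, 25.5 and 26.1 FPKM in libraries labelled si-CIRBP, against 19.8, 18.5 and 17.98 FPKM in si-NC (log2 fold change 0.24, SE 0.131, adjusted p = 0.199). Smc4 was thus lower in the libraries labelled si-CIRBP, as it was in CIRBP, although neither difference passed the shared test. Mad2l1 and Ncapg had log2 fold changes of 0.21 (adjusted p = 0.232) and 0.13 (adjusted p = 0.378). Mki67 stood at 33.7, 77.7 and 71.4 FPKM in libraries labelled si-CIRBP, against 70.1, 77.1 and 67.1 FPKM in si-NC (log2 fold change -0.31, SE 0.239, adjusted p = 0.364). Cdc25b stood at 14.6, 27.0 and 26.0 FPKM in libraries labelled si-CIRBP, against 22.5, 23.5 and 22.2 FPKM in si-NC (log2 fold change -0.06, SE 0.172, adjusted p = 0.833), and its log2 fold change was 0.21 (adjusted p = 0.00199) without library 1.

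Library 1 was not lower by one common factor. Its FPKM were 0.303 of the mean of libraries 2 and 3 for Plk1, 0.331 for Cdc20, 0.364 for Cenpf and 0.368 for Ccnb1, and 0.784 for Aurkb, 0.837 for Cdc25c and 0.854 for Ncapg. By role, the median ratio was 0.425 for the entry genes and lay between 0.534 and 0.580 for the other 5 roles, and the ranges of single genes overlapped between all roles. Plk1 stood at 19.4, 64.5 and 64.0 FPKM in libraries labelled si-CIRBP, against 60.1, 61.0 and 57.3 FPKM in si-NC (log2 fold change -0.45, SE 0.346, adjusted p = 0.369). Cdc20 stood at 23.7, 72.8 and 70.3 FPKM in libraries labelled si-CIRBP, against 65.5, 52.9 and 58.6 FPKM in si-NC. Ccnb1 stood at 26.0, 71.4 and 70.1 FPKM in libraries labelled si-CIRBP, against 57.7, 40.8 and 53.0 FPKM in si-NC (log2 fold change 0.02, SE 0.306, adjusted p = 0.964). In each of the 3 genes library 1 was under every other library of the 12, while libraries 2 and 3 were above all of si-NC. Library 1 was below all 3 si-NC libraries in 31 of the 39 genes, against 42.4% of all genes. It was below all other 11 libraries in 30 of the 39, and the share of all genes with that pattern was not counted.

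**Figure D4:**
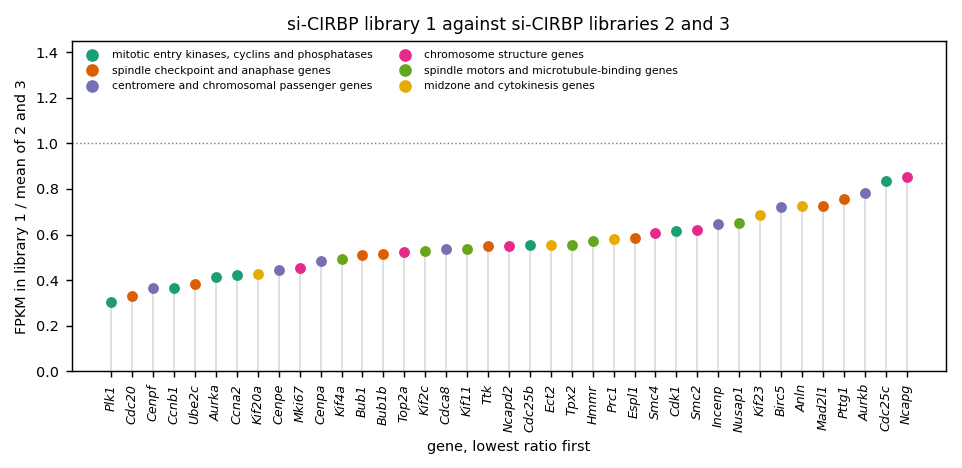
FPKM in library 1 labelled si-CIRBP divided by the mean of libraries 2 and 3 (vertical axis, from 0) for each of the 39 genes (horizontal axis, lowest first), coloured by role. All 39 points lie under the dotted line at 1, from 0.303 for Plk1 to 0.854 for Ncapg.

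Some genes known to hold mitotic genes up or down also stood apart in library 1. Cdkn1a, which encodes p21, the inhibitor of cyclin-dependent kinases, stood at 247, 95 and 99.98 FPKM in libraries labelled si-CIRBP, against 99.9, 108 and 102 FPKM in si-NC, so library 1 alone was high. Ccng2, an atypical cyclin linked to cell cycle arrest, stood at 49.3, 16.9 and 15.7 FPKM in libraries labelled si-CIRBP, against 9.70, 10.2 and 9.51 FPKM in si-NC; all 3 libraries were higher than si-NC, library 1 the most (log2 fold change 1.20, SE 0.321, adjusted p = 0.0176). Foxm1, the transcription factor of the late G2 genes, stood at 13.0, 30.7 and 30.5 FPKM in libraries labelled si-CIRBP, against 28.0, 25.7 and 25.3 FPKM in si-NC, and was low in library 1 alone (log2 fold change -0.18, SE 0.246, adjusted p = 0.631). Mybl2, which encodes B-MYB, stood at 25.2, 25.6 and 23.4 FPKM in libraries labelled si-CIRBP, against 21.7, 20.5 and 21.0 FPKM in si-NC, and was not low in library 1 (log2 fold change 0.22, SE 0.0597, adjusted p = 0.018). Wee1, a kinase that inhibits CDK1, was lower in library 1 as the mitotic genes were, at 14.3, 22.2 and 21.3 FPKM in libraries labelled si-CIRBP, against 19.6, 17.1 and 18.2 FPKM in si-NC. The call of Ccng2 was lost without si-NC library 3, and that of Mybl2 without library 2 labelled si-CIRBP or si-NC library 3. The part of any of these genes in the level of the mitotic genes was not tested.

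Libraries 2 and 3 alone placed the mitotic genes above si-NC. Both were above all 3 si-NC libraries in 34 of the 39 genes and both below in 1, Smc4, while both were above in 19.9% of all genes. In a fit without library 1, which leaves 2 libraries in the group and assumes that they vary like the other groups, 32 of the 39 were called higher and 0 lower, against 12.2% and 23.7% of all genes. Library 1 was set aside for its low values in these genes, so their higher fold changes in this fit follow in part from that choice. The median log2 fold change was then 0.29, from -0.16 to 0.52, and that of all genes -0.04. Cdk1 stood at 73.5, 119.9 and 118 FPKM in libraries labelled si-CIRBP, against 87.0, 72.9 and 88.3 FPKM in si-NC, which gives 0.29 (adjusted p = 0.185) with all libraries and 0.52 (adjusted p = 0.000469) without library 1. Top2a stood at 48.1, 95.8 and 87.1 FPKM in libraries labelled si-CIRBP, against 71.0, 59.9 and 63.6 FPKM in si-NC, and gave 0.19 (adjusted p = 0.515) with all libraries and 0.49 (adjusted p = 0.000536) without it. Ccna2 stood at 27.4, 66.6 and 62.3 FPKM in libraries labelled si-CIRBP, against 52.2, 50.4 and 48.8 FPKM in si-NC, and its fold change turned, with -0.05 over all libraries and 0.35 (adjusted p = 0.000662) without library 1. In all 3 genes libraries 2 and 3 lay above si-NC. With the fit held to the 5 remaining libraries of this pair, 12 were called higher and 0 lower, against 3.65% and 9.83% of all genes. The 7 genes not called without library 1 were Plk1, Mki67, Ncapg, Smc4, Tpx2, Hmmr and Kif23, among them Mki67 with a log2 fold change of 0.06 and Ncapg with 0.20.

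The 2 pairs of groups have separate controls, and the change within each pair was set against that within the other. The pairs also differ in the ad prefix and in the muscle marker levels given above. Cirbp mRNA was not lower in the libraries labelled si-CIRBP. The effect of what was added cannot be told apart from these differences between the pairs. The change in CIRBP minus that in the libraries labelled si-CIRBP was positive in 38 of the 39 genes, with a median of 0.49 (all genes -0.06), and 4 were called higher and 0 lower, against 6.87% and 10.9% of all genes. These were Cdk1 (difference 0.77, SE 0.219, adjusted p = 0.0347), Nusap1 (difference 0.64, adjusted p = 0.0377), Ncapg (difference 0.53, adjusted p = 0.0267) and Cdc25c (difference 0.50, adjusted p = 0.0302). All 4 calls were lost when any 1 CIRBP or NC library or si-NC library 3 was left out. Those of Cdk1 and Nusap1 were also lost without si-NC library 1, that of Nusap1 without si-NC library 2, and those of Ncapg and Cdc25c without library 3 labelled si-CIRBP. The next in order were Birc5 (difference 0.51, adjusted p = 0.0539), Tpx2 (difference 0.75, adjusted p = 0.0687) and Cenpa (difference 0.82, adjusted p = 0.0727). At an unadjusted p under 0.05, 13 were higher and 0 lower, without a count of all genes at that threshold. Without library 2 labelled si-CIRBP, 9 were called higher, against 5.98% of all genes. Without library 1 the median was 0.20, with 32 positive, and 13 were called higher and 1 lower, against 12.9% and 18.9% of all genes. The gene called lower was Anln (difference -0.47, adjusted p = 0.00695), and the higher ones included Cdk1 (0.54), Cenpa (0.50), Top2a (0.49) and Tpx2 (0.47). Ccnb1 and Pttg1 had differences of 0.07 and -0.02 in that fit, with adjusted p of 0.752 and 0.931. Across the 39 genes, which are not independent replicates, the fold changes of the 2 pairs had a Pearson correlation of 0.60 and a Spearman correlation of 0.57, and 0.59 and 0.53 without library 1.

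The control groups themselves differed in the mitotic genes, by less. In si-NC against NC the fold change was positive in 33 of 39, with a median of 0.16 (all genes -0.07), and 0 genes were called in either direction by limma, against 12.5% of all genes higher and 21.9% lower. At an unadjusted p under 0.05, 6 were higher and 0 lower. The share of all genes at that threshold was not counted, and it cannot be under the 12.5% called higher. All 3 si-NC libraries were above all 3 NC libraries in 21 genes, against 19.1% of all genes. The count depends on the spread of library 1 labelled si-CIRBP, which enters the shared estimate: without it 19 were called higher and 1, Smc4, lower, against 17.4% and 29.8% of all genes, and in a fit of the 6 control libraries 17 were called higher and 0 lower, against 10.2% and 21.4% of all genes. Aurkb stood at 19.7, 16.4 and 17.5 FPKM in si-NC, against 14.5, 15.3 and 14.6 FPKM in NC (log2 fold change 0.25, SE 0.0940, adjusted p = 0.0613). Cdk1 stood at 87.0, 72.9 and 88.3 FPKM in si-NC, against 62.2, 62.7 and 63.8 FPKM in NC (log2 fold change 0.38, SE 0.155, adjusted p = 0.0787). Espl1 stood at 10.46, 9.78 and 11.4 FPKM in si-NC, against 7.81, 7.404 and 7.77 FPKM in NC (log2 fold change 0.41, SE 0.157, adjusted p = 0.0653). In these 3 genes every si-NC library lay above every NC library. Plk1 stood at 60.1, 61.0 and 57.3 FPKM in si-NC, against 44.9, 45.2 and 45.5 FPKM in NC (log2 fold change 0.39, SE 0.346, adjusted p = 0.417), with no overlap. Pttg1 stood at 68.4, 51.5 and 57.8 FPKM in si-NC, against 62.9, 63.6 and 63.6 FPKM in NC (log2 fold change -0.10, SE 0.116, adjusted p = 0.519), and its groups overlapped. Of the others, Mad2l1, Incenp, Birc5, Cenpa, Top2a, Kif2c, Ccna2, Ube2c and Smc2 had log2 fold changes between 0.20 and 0.39. Mki67 had 0.31, Ccnb1 0.16, Cdc25b 0.08 and Cdc25c 0.11. NC is also the control of CIRBP, so these values and those of CIRBP against NC are not independent. The smooth muscle marker sum given above was also higher in si-NC than in NC, and its part in these differences was not tested. Group means of the 39 genes were highest in CIRBP for 34 genes and lowest in NC for 33, and the commonest order, in 21 genes, was CIRBP, si-CIRBP, si-NC, NC from high to low. How many of all genes have these orders was not counted.

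Other genes of cell division were counted from lists of related function, to be read against the 19.7% of all genes called higher and 34.2% called lower in CIRBP. In CIRBP against NC, 17 of 32 other kinetochore and centromere genes were called higher and 1 lower (median 0.43). The one called lower was Ska2, a microtubule-binding subunit of the outer kinetochore (-0.83). The rises were led by Spc24, a subunit of the NDC80 complex that binds microtubules, at 75.9, 80.2 and 75.7 FPKM in CIRBP, against 33.3, 32.4 and 36.8 FPKM in NC (log2 fold change 1.16, SE 0.0852, adjusted p = 1.67e-06), and by Cenph, Cenpt and Cenpn, subunits of the inner kinetochore, with log2 fold changes of 1.14, 0.81 and 0.71. Of 34 entries of other mitotic kinesins and spindle genes (Spag5 has 2), 17 were called higher and 0 lower, among them Kif15 (0.84), a spindle motor that can share the work of KIF11, and Melk (0.85) and Pbk (0.95), mitotic kinases. Of 30 DNA replication genes, 20 were called higher and 0 lower, beside the 20 of 39 mitotic genes. Gmnn, geminin, which blocks renewed licensing of replication origins, stood at 42.6, 41.3 and 46.5 FPKM in CIRBP, against 22.2, 23.7 and 24.6 FPKM in NC (log2 fold change 0.86, SE 0.108, adjusted p = 6.66e-05). Of 19 G1 and S cyclins and kinases, 7 were called higher and 2 lower, Ccnh (-0.76) and Cdc25a (-0.27). Ccnd1, cyclin D1, stood at 971, 931 and 941 FPKM in CIRBP, against 447, 449.7 and 443 FPKM in NC (log2 fold change 1.08, SE 0.0620, adjusted p = 3.24e-07), whereas Ccne1, cyclin E1, stood at 6.92, 6.03 and 7.34 FPKM in CIRBP, against 8.42, 7.57 and 8.88 FPKM in NC and was not called (adjusted p = 0.051).

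The counts of some lists were near those of all genes. Of 19 APC/C subunits and mitotic exit genes, 4 were called higher and 6 lower in CIRBP (median -0.17), shares close to the 19.7% and 34.2% of all genes. The higher ones were Fbxo5, the inhibitor of the APC/C in S and G2 (0.67), Ube2s, an E2 enzyme of the APC/C (0.53), and the subunits Anapc5 (0.50) and Anapc11 (0.39). The lower ones were the subunits Anapc4, Anapc7, Cdc16 and Cdc27 and the phosphatases Cdc14a and Cdc14b, between -0.51 and -0.28. Of 20 other condensin, cohesin and chromosome structure genes, 11 were called higher and 6 lower. H2az1, a histone variant, rose to 649, 598 and 650.3 FPKM in CIRBP, against 303, 314 and 329 FPKM in NC (log2 fold change 1.00), and Ncapd3, a condensin subunit, and Cdca5, sororin, which protects cohesion, rose by 0.86 and 0.66. The share called lower was near that of all genes. The 6 lower genes were Smc3 (-0.39), Stag1 (-0.98), Stag2 (-0.53), Wapl (-0.20), Pds5a (-0.27) and Nipbl (-0.37). They are known as cohesin subunits or regulators, of which the list also holds Cdca5 and Esco2, called higher, and Smc1a, Rad21 and Pds5b, not called. Stag1 stood at 12.6, 13.3 and 13.0 FPKM in CIRBP, against 26.1, 26.9 and 26.5 FPKM in NC, with no overlap. Of 16 genes of G2/M transcription control, 3 were called higher, Mybl2, Tfdp2 (0.30) and Nfya (0.13), and 2 lower (median -0.02). The call of Tfdp2 was lost without CIRBP library 1, CIRBP library 3 or NC library 1. Foxm1 stood at 28.6, 29.6 and 31.1 FPKM in CIRBP, against 22.01, 21.8 and 21.7 FPKM in NC (log2 fold change 0.43, SE 0.246, adjusted p = 0.167), and Mybl2 at 18.4, 19.2 and 20.0 FPKM in CIRBP, against 14.5, 16.2 and 14.5 FPKM in NC (log2 fold change 0.33, SE 0.0597, adjusted p = 0.000806). Nfyc, a subunit of the CCAAT-binding factor NF-Y, and E2f4, a repressor E2F of the DREAM complex, were the 2 called lower, at -0.87 and -0.40. Of 12 brakes on G2/M entry and CDK inhibitors, 1 was called higher and 2 lower. The one called higher was Pkmyt1, a kinase that inhibits CDK1, at 12.2, 12.7 and 13.3 FPKM in CIRBP, against 4.94, 5.10 and 4.69 FPKM in NC (log2 fold change 1.22, SE 0.0758, adjusted p = 5.65e-07), and the lower ones were Ccng1 and Gtse1, both linked to p53, at -0.54 and -0.38. Cdkn1a stood at 123, 132 and 120.4 FPKM in CIRBP, against 108, 107 and 112 FPKM in NC and was not called (log2 fold change 0.20, SE 0.278, adjusted p = 0.595). Chek1 was not analysed here.

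**Figure D5:**
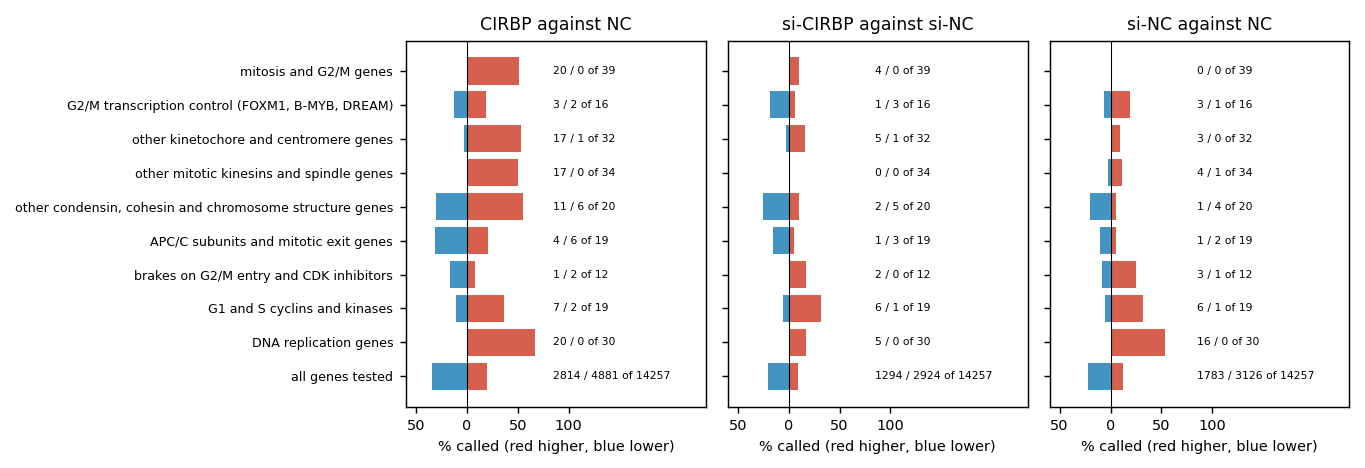
Percentage of genes called higher (red, to the right) or lower (blue, to the left) in 3 comparisons (panels; horizontal axes in percent) for the mitotic genes, 8 lists of related genes and all genes tested (vertical axis); the figures at the right of each panel are the numbers called higher and lower of those tested. The bars of the mitotic genes read 20 and 0 of 39 in CIRBP against NC, 4 and 0 in si-CIRBP against si-NC, and 0 and 0 in si-NC against NC.

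In the other comparisons fewer genes of most lists were called. In si-CIRBP against si-NC, 5 of 32 other kinetochore genes were called higher and 1, Zwilch (-0.19), lower, 0 of 34 entries of other kinesins and spindle genes were called, 5 of 30 DNA replication genes were called higher and 0 lower, and 6 of 19 G1 and S genes were called higher and 1, Ccnh (-0.31), lower. Without library 1, the counts called higher were 18 of 32, 16 of 34, 18 of 30 and 10 of 19, against 12.2% of all genes. With all libraries 9.08% of all genes were called higher and 20.5% lower. Cenpm, an inner kinetochore subunit, stood at 23.5, 24.3 and 25.2 FPKM in libraries labelled si-CIRBP, against 18.3, 14.4 and 15.5 FPKM in si-NC (log2 fold change 0.57, SE 0.0847, adjusted p = 0.000752), so library 1 was not low in it. Pcna, the sliding clamp of DNA polymerase, stood at 225, 247 and 233 FPKM in libraries labelled si-CIRBP, against 207, 147 and 195 FPKM in si-NC (log2 fold change 0.37, SE 0.105, adjusted p = 0.0212). In Pcna library 1 was close to libraries 2 and 3, and the call was lost without library 2. In the fit of these 6 libraries alone Cenpm was called, and Pcna, Ccng2, Mybl2 and Ccnh were not. The summed FPKM of the 30 DNA replication genes was 1207, 1646 and 1594 in libraries labelled si-CIRBP, against 1386, 1144 and 1293 in si-NC. In si-NC against NC, Mybl2 stood at 21.7, 20.5 and 21.0 FPKM in si-NC, against 14.5, 16.2 and 14.5 FPKM in NC (log2 fold change 0.46, SE 0.0597, adjusted p = 0.000559). Of the 30 DNA replication genes, 16 were called higher and 0 lower, against 12.5% and 21.9% of all genes, and 6 of 19 G1 and S genes higher and 1, Rb1 (-0.46), lower, beside the 0 of 39 mitotic genes. Without library 1 labelled si-CIRBP, 25 of the 30 replication genes and 19 of the 39 mitotic genes were called higher, against 17.4% of all genes.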

How the data were processed

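FPKM per gene and library were computed by the authors, per the file headers, from libraries described in the labels' protocols. The submitters' processing notes name Bowtie2 2.3.3.1, Cufflinks 2.2.1 and the builds GRCm38 and mm10 without roles, while the gene identifiers are rat Ensembl ones, so the build used for alignment is unclear. Absolute depth is unknown, and so no counting intervals are given. Summed FPKM ran from 457775 to 502889 per library. Strandedness is not stated, nor how reads shared by near-identical genes were treated.

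Groups came from the titles. Genes that reached 1 FPKM in at least 3 libraries were compared with limma 3.58.1 (eBayes with trend) in R 4.3.3 on log2(FPKM + 1), with 1 coefficient per group over 12 libraries, 8 residual and 2.53 prior degrees of freedom, two-sided p-values and Benjamini-Hochberg adjustment over all 14257 genes; an adjusted p under 0.05 was called. The fit was tested on simulated data in which each gene had the same spread in every group. It therefore does not bear on calls that depend on the unequal spread of these groups. The members, the lists, the tests and the alternatives were chosen with earlier results of these data known. Any member may be named; values are given for the 12 smallest adjusted p of each comparison, for fixed anchor genes, and for up to 4 called genes per other list with the smallest adjusted p. Called genes of a list beyond these were named after their values were seen. The fits have no block, because nothing in the labels says what a replicate number marks. Same-numbered CIRBP and NC libraries deviated together with correlations of 0.0965, 0.0482 and 0.0995, each under the limit used (over 0.1 in every pair). Differently numbered CIRBP and NC libraries correlated between -0.083 and -0.00817, so every same-numbered value of these groups was above every differently numbered one. A pairing weaker than the limit would pass unseen. For si-CIRBP and si-NC the same-numbered correlations were 0.0142, -0.0898 and 0.0405. The alternatives were other scalings, pseudocounts, filters, variance models, a replicate block and fits without 1 library. Promoters come from RefSeq (GRCr8).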

Additional observations from a re-analysis of the deposited data

Results flagged for a closer look

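In 4 genes the change in CIRBP against NC and the change in the libraries labelled si-CIRBP against si-NC differed by a test of that difference itself (limma, adjusted over all genes tested). These are 4 of 39 genes, beside 6.87% of all genes called higher in this test, and without library 1 labelled si-CIRBP 13 of 39, beside 12.9%. The difference on the log2 scale was 0.77 for Cdk1, 0.64 for Nusap1, 0.53 for Ncapg and 0.50 for Cdc25c. In Cdk1 the log2 fold change was 1.07 in CIRBP and 0.29 in the libraries labelled si-CIRBP, in Nusap1 0.88 and 0.24, in Ncapg 0.66 and 0.13, and in Cdc25c 0.77 and 0.27. All 4 passed the test again without library 1 labelled si-CIRBP, which was singled out by the mitotic genes, at 0.54, 0.44, 0.46 and 0.42. All 4 calls were lost without any 1 CIRBP or NC library or si-NC library 3. With the replicate number as a block 2 of the 39 genes were called higher, beside 5.99% of all genes. The 2 pairs of groups also differ in the ad prefix and in muscle marker levels, which cannot be told apart from these differences.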

How the results depend on the processing

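The limits are 3 libraries a group, unknown absolute depth, and one library that widens the shared spread; the cause of each change below was not tested unless the setting itself removes libraries. With the replicate number as a block, 1 mitotic gene was called higher in si-CIRBP against si-NC and 2 in the difference between the pairs, beside 19 higher in CIRBP and 0 in si-NC against NC. The shares of all genes called higher were then 8.39%, 5.99%, 19.1% and 11.5%, in that order. The same-numbered correlations stayed under the limit used, although those of CIRBP and NC were positive. The block left the median fold changes as they were, at -0.01 in si-CIRBP against si-NC and 0.49 in the difference. A call lost under it is thus not a smaller effect. After scaling to one median, 6 were higher in si-NC against NC, against 15.1% of all genes, and by median ratios 5 were, against 15.3%. These 2 counts do not set the mitotic genes apart from other genes. Median ratios gave 7 higher in the difference, against 9.19% of all genes. With a variance factor per group, 33 were higher and 1 lower in CIRBP, against 28.3% and 43% of all genes. In si-CIRBP 1 was higher (2019 of all genes called), against 3.77% of all genes, and in the difference 9 were, against 6.39%. In the control comparison 5 were higher, against 12.9%, which is close to the share of all genes. In fits of only the groups compared, 36 were higher and 1 lower in CIRBP, 0 higher in si-CIRBP (1155 of all genes called) and 17 in si-NC against NC. Of all genes, 27.9%, 1.87% and 10.2% were called higher in these fits. Leaving out library 1 labelled si-CIRBP as well, chosen after seeing the data, gave 12 higher in si-CIRBP, with Ccna2 at 0.35. Of all genes 1910 were called there, and 3.65% were called higher.

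Over fits without 1 library each, the number of mitotic genes called higher was 12 to 35 in CIRBP, 1 to 32 in si-CIRBP, 0 to 13 in the difference, and 0 to 19 between the control groups, and the number called lower 0 to 1 in each. The share of all genes called higher was 16.2% to 24%, 6.81% to 12.2%, 4.02% to 12.9% and 6.84% to 17.4%, in the same order. The share called lower was 29.9% to 38.2%, 16.1% to 23.7%, 6.65% to 18.9% and 13.7% to 29.8%. All genes called ranged from 1529 to 4503 in the difference, and between the control groups from 2950 to 6698. In the same fits the log2 fold change in si-CIRBP against si-NC ranged from -0.28 to 0.35 for Ccna2, from -0.21 to 0.21 for Cdc25b and from -0.37 to 0.21 for Foxm1, and the difference between the pairs from -0.40 to 0.28 for Cdkn1a; in all 4 genes the sign turned without library 1 labelled si-CIRBP.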
